A study of Mus musculus with 5 samples.

Results

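The genes described here are 10 partners of topoisomerase IIβ in break repair and chromatin loops: Prkdc, Xrcc5, Xrcc6, Parp1, Smc3, Smc1a, Rad21, Stag1, Stag2 and Ctcf. They were chosen by name, with earlier results of these data known, from the 21631 protein-coding genes of the autosomes and chromosome X. A peak was counted for a gene when its summit lay inside the annotated gene or within 10 kb of it (GRCm38). By this rule the 10 genes held 4 of the 3316 peaks of untreated neurons and 1 of the 3646 peaks of NMDA-treated neurons. The data are HSF1 chromatin immunoprecipitation and sequencing (ChIP-seq) of primary cortical neurons from wild-type Swiss-Webster mouse embryos at embryonic day 16, kept in culture to day 13. HSF1 is a transcription factor that switches on chaperone genes when proteins misfold. Control neurons received no treatment (2 libraries). The others were given NMDA, which opens the glutamate receptors named after it, at 50 µM for 10 min and then 20 min in drug-free medium (2 libraries). The single input library, sheared chromatin before immunoprecipitation, came from neurons labelled as untreated. Both libraries of a condition stand behind a single deposited list of peaks. Values therefore carry no error between replicates, no test was possible, and every difference below is one between 2 lists. Read counts were not analysed here and the depth of the libraries is unknown. A list of HSF1 peaks measures no expression, so the label of cortical neurons could not be checked against marker genes.

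Topoisomerase IIβ, encoded by Top2b, cuts both strands of DNA, passes another stretch through the gap and reseals the ends. Ends that are not resealed are bound by the Ku heterodimer, which recruits the kinase encoded by Prkdc so that the ends can be joined, while PARP1 senses strand breaks and modifies proteins around them. Cohesin is a ring built on SMC1A, SMC3 and RAD21 with a STAG subunit; it forms chromatin loops that stop at sites bound by CTCF, where topoisomerase IIβ is also found. The study asks how HSF1 bears on the action of this enzyme on the DNA of neurons.

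Sequence is shown first for the start of Smc3, the only one of the 10 genes with a peak in both lists, for the start of Lig3, a break repair gene whose start lay under a control peak, and for Hspe1, a chaperone gene, as an example of the element HSF1 is known to bind. HSF1 binds arrays of the unit GAA and its reverse complement TTC that alternate with 2 bases between them. Capitals mark each single unit in Smc3 and Lig3, and the alternating array in Hspe1. All are from RefSeq (GRCm38.p6), on the plus strand, and end at the base before the annotated start for Smc3 (chr19:53600146-53600395) and Lig3 (chr11:82780859-82781108), while the Hspe1 stretch lies at chr1:55088029-55088106.
Smc3: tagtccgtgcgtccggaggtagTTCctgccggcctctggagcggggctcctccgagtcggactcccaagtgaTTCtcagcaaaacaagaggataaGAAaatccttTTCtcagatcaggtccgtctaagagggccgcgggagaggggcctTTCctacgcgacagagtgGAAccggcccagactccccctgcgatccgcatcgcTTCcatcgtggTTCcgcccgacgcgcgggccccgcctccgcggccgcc
Lig3: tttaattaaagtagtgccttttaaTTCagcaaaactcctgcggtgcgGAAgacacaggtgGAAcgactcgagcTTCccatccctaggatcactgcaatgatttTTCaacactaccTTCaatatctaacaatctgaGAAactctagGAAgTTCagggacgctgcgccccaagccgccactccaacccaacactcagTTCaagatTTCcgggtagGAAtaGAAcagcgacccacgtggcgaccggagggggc
Hspe1: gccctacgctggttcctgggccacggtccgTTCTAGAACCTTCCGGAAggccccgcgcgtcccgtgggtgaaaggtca

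The stretch of Smc3 held 8 single units and that of Lig3 held 13, and in neither did 2 units alternate at the spacing of the element. The Hspe1 array runs over 18 bases, from 55088059 to 55088076. The NMDA summit of 14.0-fold enrichment lay inside it, at 55088067, and the control summit of 4.21-fold lay 29 bp before it. Promoter entries of 300 bases (250 before the annotated start and 50 after) were at hand for 7 of the 10 genes: Xrcc5, Xrcc6, Parp1, Smc3, Smc1a, Stag1 and Ctcf. None of the 7 held a run of 3 alternating units (GAA, TTC, GAA or TTC, GAA, TTC, with any 2 bases between neighbours, which together cover both strands), against 0.603% of all 32851 entries. None of the 7 held 2 alternating units (GAANNTTC or TTCNNGAA, both of which lie within any run of 3), against 15.1% of all entries. Among the entries that contained a peak summit, the run of 3 was found in 6 of 123 (4.88%) for the control list and in 13 of 107 (12.1%) for the NMDA list. Of the same entries 17 (13.8%) and 27 (25.2%) held 2 alternating units, so the control share was below that of all entries and the NMDA share above it. These windows do not cover the peaks of Prkdc, Smc3 or Stag1, so they describe the starts of the genes and not the HSF1 sites.

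Of the 10 genes, Prkdc, Smc3 and Stag1 had a peak in the control list and Smc3 alone had one in the NMDA list. The count of 3 of 10 in the control list stands beside 10.3% of all protein-coding genes, and the count of 1 of 10 in the NMDA list beside 9.41%. The 10 genes are longer than most, from 30.9 kb (Rad21) to 361 kb (Stag1). Among protein-coding genes of at least 30 kb the shares were 18.9% and 18.3%, so the counts over so few genes are near the background. Long genes held peaks far more often than short ones. A control peak was found for 4.52% of genes under 10 kb and for 45.1% of those of 200 kb or more, the class of Prkdc and Stag1, and an NMDA peak for 3.45% and 47.3%. A peak somewhere in Prkdc or Stag1 is therefore common for genes of their length, whatever the height of that peak. A peak that overlapped one of the other list was found for 1 of the 10 genes, Smc3, beside 0.439% of all protein-coding genes. These genes were chosen with these results known, and none of these counts was tested.

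**Figure D1:**
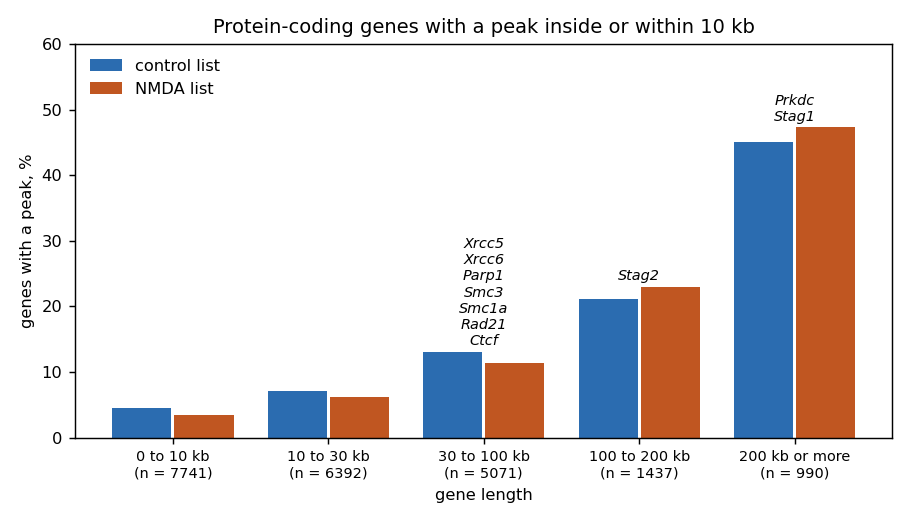
Share of protein-coding genes with an HSF1 peak summit inside or within 10 kb (vertical axis, percent) by gene length (horizontal axis, number of genes in brackets), in the control list (blue) and the NMDA list (orange); the names above the bars show the class of each of the 10 genes. The share rises with length, from 4.52% to 45.1% for control peaks and from 3.45% to 47.3% for NMDA peaks, and Prkdc and Stag1 fall in the longest class.

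Prkdc encodes DNA-PKcs, the kinase that Ku brings to broken ends. It held a single control peak at chr16:15648634-15649048 (415 bp wide, summit at 15648886), with 10.2-fold enrichment, a −log10 p of 67.7 and a −log10 q of 62.3. The fold is the authors' ratio of signal to background at the summit, on a scale of its own in each list. The site was 4th by fold among the 3316 control peaks, and the 3 above it all lay inside Top2b. The next control peak had 5.77-fold, so the Prkdc value was 1.76 times that of its nearest lower neighbour. Outside Top2b and Prkdc no control peak exceeded 4.93-fold, and 10 of the 13 control peaks inside Top2b lay below the Prkdc site. The fold at Prkdc thus sits with the 3 strongest Top2b sites (12.4, 12.2 and 11.1-fold) and above a gap in the control list.

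No NMDA peak overlapped the Prkdc site. That was so for most control peaks, as 96 of the 3316 (2.90%) overlapped an NMDA peak. The nearest NMDA summits lay 2178 kb below it (2.59-fold) and 542 kb above it (3.12-fold), and the latter was 349 kb from the end of the gene. An empty place in a peak list does not show that HSF1 was absent, and the signal there in NMDA-treated neurons was not analysed here. Among the 3220 control peaks without an overlapping NMDA peak the median was 2.66-fold and the highest after Prkdc was 4.11-fold, so the Prkdc site was 2.47 times the next. By −log10 q the next of these unshared peaks had 24.4, at only 1.47-fold. The 3 strongest Top2b sites of the control list overlapped NMDA peaks of 9.18, 11.5 and 9.94-fold in the same order. Prkdc was chosen with its strong control-only site known, and its contrast with Top2b was not tested.

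**Figure D2:**
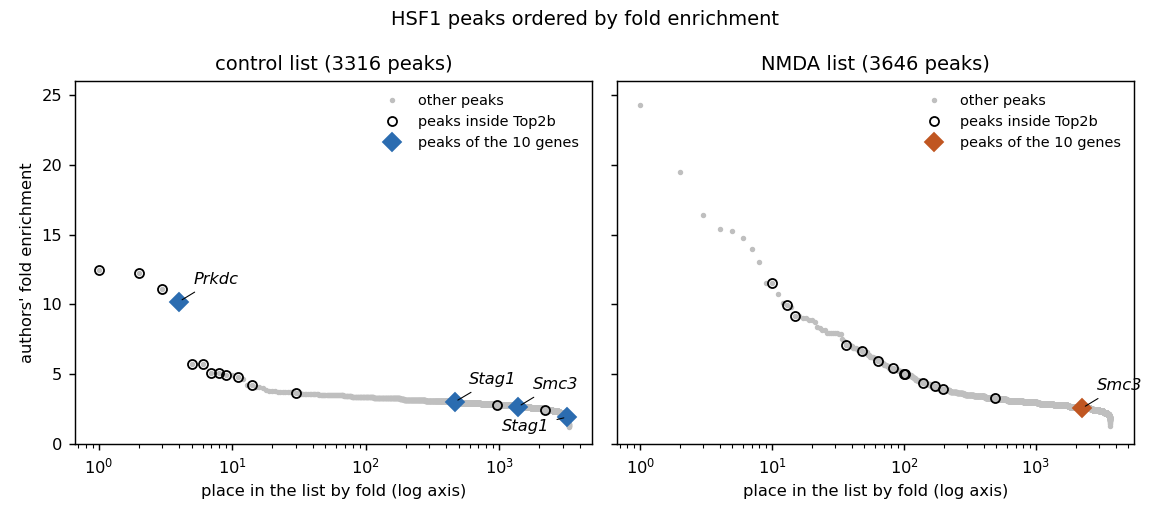
The authors' fold enrichment of every HSF1 peak (vertical axis) against its place in its own list (horizontal log axis), for the control list (left) and the NMDA list (right); grey points are all peaks, open circles are peaks inside Top2b and coloured diamonds are peaks of the 10 genes. The Prkdc site stands at 10.2-fold with 3 Top2b peaks in the control list, above a gap down to 5.77-fold, while Smc3 and Stag1 lie on the flat part of the curves and the NMDA list has no peak for Prkdc or Stag1.

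The Prkdc site lay near one edge of a long gene. Its summit was 11.4 kb from the lower-coordinate end of the gene (chr16:15637444-15842239, 205 kb), which is 5.59% of the way along it. That end faces Mcm4, a gene for a subunit of the replicative helicase (15623897 to 15637400), and only 43 bp separate the annotated genes. Prkdc and Mcm4 are transcribed away from each other from a shared promoter region. The summit lay 11486 bp from Mcm4, so by the 10 kb rule the site counts for Prkdc alone. The peak was wider than 77.0% of control peaks, whose median width was 316 bp. Chromosome 16 held 149 control and 188 NMDA peaks. No other control peak on it exceeded 3.70-fold, and the nearest other control summit was 195 kb away (2.71-fold). The annotation used gives no exons, so whether the site is exonic or intronic is not stated.

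Ranked by the authors' p in place of fold, the Prkdc site was 9th. The 8 control peaks with a higher −log10 p were the same 3 Top2b peaks and 5 others with folds between 1.27 and 4.70, of which 2 lay on the mitochondrial genome. Without the peaks inside Top2b the Prkdc site was first by fold. By the percentile of the highest peak in each list, the genes most like Prkdc over the 2 lists were Dock4 and Zfp277, which share a control peak of 4.11-fold, Gorasp1 and Ttc21a, which share one of 3.90-fold, and Zfp608 (3.80-fold). None of these 5 had an NMDA peak. They are alike in rank only, as their folds were well below that of Prkdc.

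Xrcc5 and Xrcc6 encode Ku80 and Ku70, which hold broken ends and bring the Prkdc product to them. Neither had a peak within 10 kb in either list. For Xrcc5 (chr1:72307417-72394953) the nearest control summit was 96.1 kb away (3.42-fold) and the nearest NMDA summit 244 kb away (2.47-fold). For Xrcc6 (chr15:81987833-82040085) the nearest control summit was 27.4 kb away, at 1.76-fold with a −log10 q of 0.161, and the nearest NMDA summit was 411 kb away (2.90-fold). Among protein-coding genes of 30 to 100 kb, the class of both, 13.1% had a control peak and 11.3% an NMDA peak. The 2 Ku genes thus lacked a listed site, as did most genes of their length. Parp1 (chr1:180568891-180600999) had its nearest control summit 40.5 kb away (2.67-fold) and its nearest NMDA summit 27.6 kb away (2.20-fold, −log10 q of 0.729). These 2 distances, 27.4 kb for Xrcc6 and 27.6 kb for Parp1, were the smallest beyond the limit of 10 kb, whereas every summit counted for the 10 genes lay inside its gene.

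Smc3 encodes a cohesin subunit with one of the 2 long coiled coils of the ring. It held 1 peak in each list. The control peak was at chr19:53600777-53601166, with 2.67-fold enrichment and a −log10 q of 1.62 (q = 0.024). The NMDA peak was at chr19:53600836-53601124, with 2.58-fold enrichment and a −log10 q of 1.40 (q = 0.039). Both pass a q of 0.05, as do 68.9% of control and 76.3% of NMDA peaks, and their folds are scaled separately, so the difference between 2.67 and 2.58 is not a change. The NMDA peak lay wholly inside the control peak, over 289 bp or 74.1% of it, with summits 68 bp apart. Smc3 (chr19:53600396-53645831) runs on the plus strand, and the summits lay 465 bp and 533 bp after its annotated start. The peaks began 381 and 440 bp after the end of the Smc3 stretch printed above, so that stretch is next to the site and not under it.

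The Smc3 values were ordinary for both lists apart from the overlap. The control peak was 1384th by fold, tied with others of the same fold, and the NMDA peak 2237th. Exactly the same fold, p and q were listed for 283 control peaks, Smc3 included, and for 321 NMDA peaks, Smc3 included. Of the 96 control peaks that overlapped an NMDA peak, whose folds ran from 1.27 to 12.4, 54 had a higher fold than Smc3. Of the 95 such NMDA peaks, 61 did. Overlap with the other list was found for 2.90% of control peaks and 2.61% of NMDA peaks. The overlap at Smc3 was known when the gene was chosen, and all the other overlapping peaks have the same trait. The 5 genes most like Smc3 by percentile in both lists were Cdh18 (2.67 and 2.58-fold, the same values as Smc3), Clasp2, Plscr5, Chd2 and Tes, with control peaks of 2.67 to 2.71-fold and NMDA peaks of 2.58 to 2.65-fold. This likeness rests on 2 lists with many tied folds.

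Stag1 encodes a cohesin subunit that contacts CTCF. It is the longest of the 10 genes (chr9:100597709-100958544, 361 kb) and had 2 control peaks and no NMDA peak. The stronger control peak was at chr9:100893877-100894112, with 3.02-fold enrichment and a −log10 q of 3.72 (q = 0.00019), and was 465th by fold. The weaker was at chr9:100685444-100686035, with 1.94-fold and a −log10 q of 0.597 (q = 0.25), and was 3243rd. Only the stronger of them passes a q of 0.05. They lay 208 kb apart, and the stronger was 64.6 kb from the nearer end of the gene, so neither is at a gene end. The nearest NMDA summit was 292 kb from the gene (2.69-fold). With 45.1% of genes of 200 kb or more carrying a control peak, a control peak in Stag1 is no exception.

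**Figure D3:**
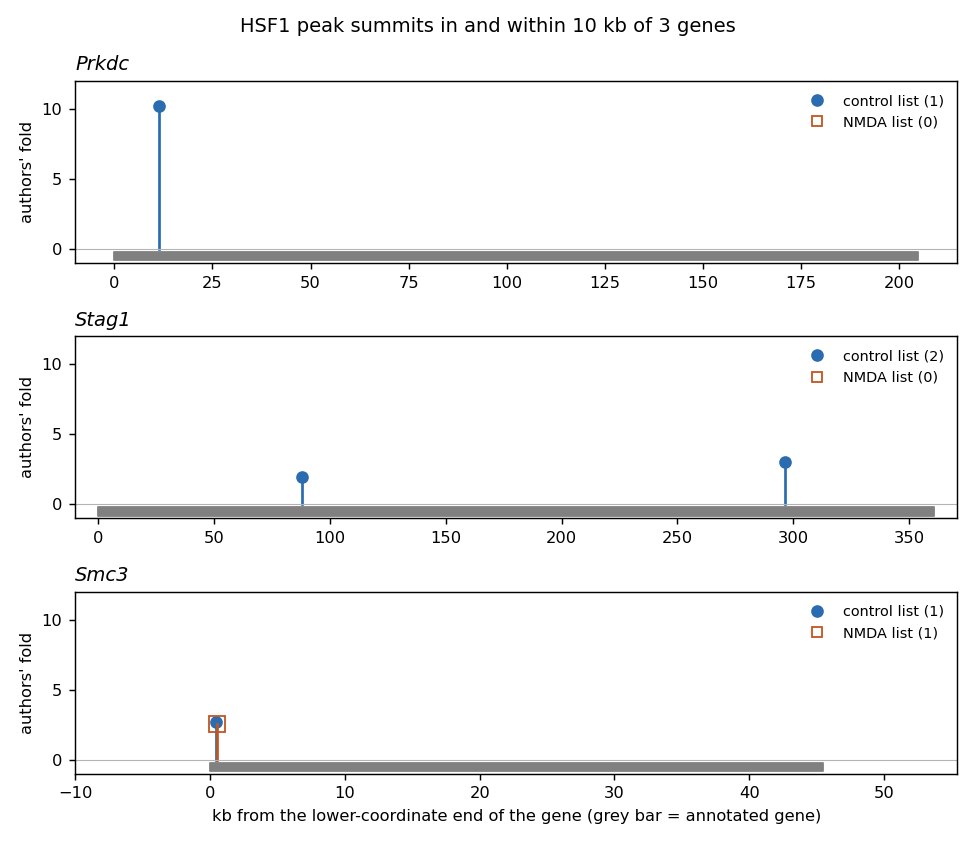
Summits of HSF1 peaks (vertical axis, the authors' fold enrichment) along Prkdc, Stag1 and Smc3 with 10 kb on either side (horizontal axis, kb from the lower-coordinate end of the gene; the grey bar is the annotated gene), with filled blue circles for the control list and open orange squares for the NMDA list. Prkdc shows 1 tall control summit 11.4 kb into the gene, Stag1 shows 2 low control summits far from its ends, and Smc3 shows a control and an NMDA summit 68 bp apart near its start.

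The other cohesin genes had no peak in either list. Rad21 encodes the subunit that bridges the heads of SMC1A and SMC3. Its nearest summits were 121 kb away in the control list (2.10-fold) and 85.0 kb away in the NMDA list (3.23-fold) from the gene at chr15:51962604-51993538. Smc1a, which encodes the partner of SMC3 in the ring, and Stag2, the paralogue of Stag1, both lie on chromosome X. Of the 966 protein-coding genes of that chromosome 2 had a control peak (0.207%) and 1 had an NMDA peak (0.104%), so the empty result at Smc1a and Stag2 is that of nearly the whole chromosome. The nearest summits to Smc1a (152016428 to 152061973) were 72707 kb and 18419 kb away, and those to Stag2 (42149297 to 42277186) were 26323 kb and 2312 kb away, in the control and NMDA lists. Ctcf (chr8:105636474-105682922) encodes the zinc finger protein at which loops stop. It had its nearest control summit 377 kb away (2.77-fold) and its nearest NMDA summit 75.5 kb away (2.47-fold). Of the 7 genes without a peak, the 5 autosomal ones had control summits 27.4 to 377 kb away and NMDA summits 27.6 to 411 kb away.

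**Figure D4:**
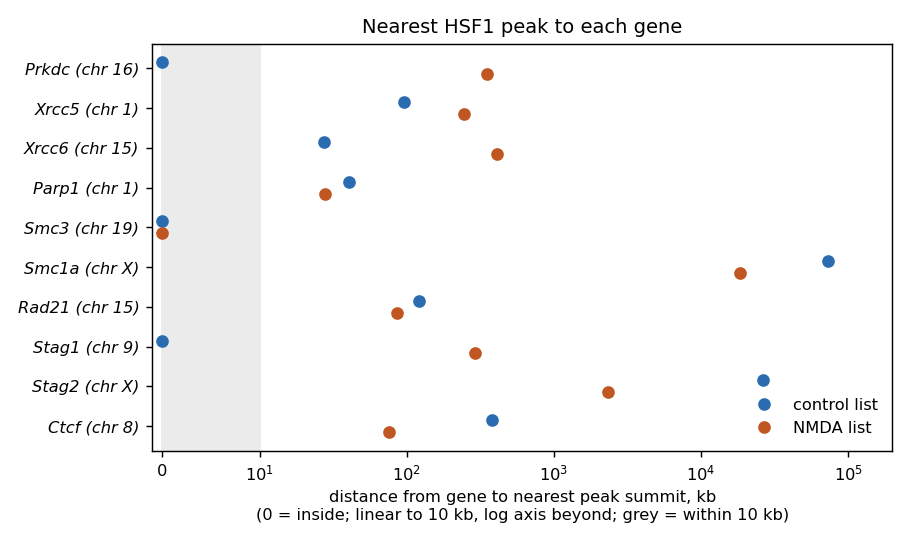
Distance in kb from each of the 10 genes to the nearest HSF1 peak summit (horizontal axis, linear to 10 kb and log beyond, 0 for a summit inside the gene) in the control list (blue) and the NMDA list (orange). Prkdc, Smc3 and Stag1 have a control summit at 0 and Smc3 an NMDA summit at 0, no summit falls between 0 and 27.4 kb, and the X-linked Smc1a and Stag2 are farthest from any peak.

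A wider list of 52 genes of break repair, cohesin regulation, loop boundaries and topoisomerases was counted by the same rule. In the control list 7 of the 52 (13.5%) had a peak and in the NMDA list 5 (9.62%), beside 10.3% and 9.41% of all protein-coding genes, and 43 had none in either list. The shares are near the background. Of 24 break repair genes, Xrcc4 and Lig3 had a control peak, and Xrcc4, Atm and Brca1 an NMDA peak. Lig3 encodes a DNA ligase that works with XRCC1. Its control peak (chr11:82780826-82781151, 3.39-fold, −log10 q of 4.39) was tied for 80th by fold. The summit was 109 bp before the annotated start and at base 142 of the Lig3 stretch printed above, all 250 bases of which lay under the peak. That summit also lies near the start of the noncoding gene Gm11423, annotated on the other strand. After Prkdc the Lig3 site was the highest peak of these 62 genes outside Top2b in the control list. Atm, which encodes the kinase that signals breaks, had an NMDA peak of 3.12-fold (chr9:53466603-53466871, −log10 q of 3.30) inside the gene. Brca1, a gene of homologous recombination, had an NMDA peak of 2.47-fold (chr11:101552163-101552534) with its summit 491 bp before the annotated start, but its q of 0.071 does not pass 0.05 and the summit lies inside the neighbouring gene Nbr1. None of these 3 sites overlapped a peak of the other list, which is usual. Such an overlap was found for 2.90% of control peaks and 2.61% of NMDA peaks.

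Xrcc4 encodes a scaffold of the end-joining ligase, downstream of Ku and the Prkdc product. It had a weak peak in each list (control 2.18-fold with q = 0.12, NMDA 2.44-fold with q = 0.071), with summits 12.5 kb apart. Among 12 cohesin regulators and meiotic subunits, Wapl, which encodes the factor that releases cohesin, and Pds5a, which encodes its partner, had control peaks of 2.46 and 2.44-fold (q = 0.071 for each), and none had an NMDA peak. Of the 4 other SMC genes, Smc2 had a peak in each list (2.05 and 2.22-fold, q = 0.36 and 0.19), with summits 1299 bp apart, and Smc5 had a control peak of 2.77-fold 6.49 kb outside the gene. Smc2 encodes a condensin subunit and Smc5 a subunit of a repair complex. The 6 loop and boundary factors (Ctcfl, Zfp143, Yy1, Ldb1, Maz and Adnp) had no peak in either list. Of the 6 topoisomerase genes only Top2b had peaks, 13 in each list. The 10 genes and the 52 together thus held overlapping peaks of both lists at Smc3 and Top2b alone, beside 0.439% of all protein-coding genes. The genes were chosen with earlier results of these data known, and this count was not tested.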

How the data were processed

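HSF1 ChIP-seq of 2 control and 2 NMDA libraries, with 1 input library, was deposited as 1 peak list per condition. FastQC, Trimmomatic, BWA, SAMtools and MACS2 (no versions) and the builds mm10 and GRCm38.p6 are named, per the submitters' processing notes. For the merging of replicates no step is given in the sources used here. Each deposited peak has a score, a fold enrichment (a ratio at the summit), a −log10 p and a −log10 q, and the distance in bp to its summit. The name of a list gave its condition.

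Gene positions and promoter sequences came from RefSeq tables of GRCm38.p6. All 10 genes and all 52 further genes matched by symbol. Peaks were assigned by summit to genes with 10 kb on either side, and were called shared at an overlap of at least 1 bp. Genes most like Prkdc and Smc3 had the smallest summed difference in the percentile of their highest peak, where no peak counts as 0. Named were the 10 genes, the further genes with a peak, the loop and boundary factors, neighbouring genes and these most like genes. Hspe1 was picked as an example of the element. Python 3.11.15 and pandas 2.3.3 were used, and the assignment was tested on simulated peaks. The members and lists were chosen with earlier results of these data known. Sequence under the peaks of the 10 genes was not used here. No test was run, because lists without replicate values allow none. Depth is unknown, so no interval is given.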

Additional observations from a re-analysis of the deposited data

How the results depend on the processing

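Of 26 values under other settings, 16 equalled the value reported or, for counts, stayed within 1.5 times of it, and so did both of the 2 added after the data were examined (leaving out the genes on chromosome X). With 50 kb on either side of a gene, 5 of the 10 genes had a control peak and 2 an NMDA peak. Within 1 kb of a gene end, 1 had a control peak. Among peaks of at least 3-fold, 0 had an NMDA peak, since Smc3 is below that fold. The Prkdc site was 9th by −log10 p and 1st without the peaks inside Top2b. The Smc3 site was 1495th and 1372nd in the control list and 2341st and 2224th in the NMDA list under the same settings. Apart from the ranks by −log10 p, these shifts follow from the settings' own construction. By −log10 p, 5 control peaks outside Top2b with folds of 1.27 to 4.7 stood above the Prkdc site. The shared call at Smc3 held under each of its 5 alternatives, summit distance, larger overlap and q below 0.05 included. Single libraries could not be left out of a list that combines them. No paired analysis was possible because replicates have no values of their own. For the 10 genes the heat shock element was searched in promoter entries and not in peaks. This gave 0 of 7 genes with 3 or with 2 units. The printed Lig3 stretch, which lay under a control peak, held neither.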
